A study of Mus musculus with 9 samples.

Results

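The 44 genes described here are a selection. They cover part of the transcriptional output of the integrated stress response and of the unfolded protein response of the endoplasmic reticulum (ER), with sensors. They were taken by gene symbol from the 40773 symbols of the deposited count table, and each of the 44 had enough counts to be among the 15183 genes tested. By role they fall into 25 genes of the ATF4 and amino acid arm, 15 genes of the ER chaperone arm and 4 stress sensors. The cells were mouse embryonic cortical neurons, 3 cultures for each of 3 treatments, harvested at 72 h. The control, called PA, received a peptide amphiphile without charge, which is a short peptide joined to a lipid tail that assembles into fibres in water. The second treatment, Na+ ICN, was a nanostructure carrying sodium ions, and the third, K+ ICN, was one carrying potassium ions. All 3 were made up at 5 mM and used at 200 µM, with 80 µl applied to the cells and 50% of the medium renewed at 48 h, so each culture was exposed to a supramolecular material and none was left without one. Mouse strain, embryonic stage and any pooling of embryos were not given in the sources used here.

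In the integrated stress response, sensor kinases such as PERK in the ER membrane and GCN2, which binds uncharged transfer RNA, phosphorylate the translation initiation factor eIF2. General protein synthesis then slows while the messenger RNA of the transcription factor ATF4 is translated more, and ATF4, with partners of the C/EBP family, switches on genes for amino acid synthesis, amino acid uptake, transfer RNA charging and feedback control. The unfolded protein response adds a chaperone programme, driven by the factor ATF6 and by XBP1, whose messenger RNA is spliced by the kinase IRE1. Neurons depend on both systems because they make and secrete large amounts of membrane and secretory protein. Gene counts give the messenger RNA level, and they give neither the phosphorylation of eIF2, the splicing of Xbp1 nor the translation of Atf4.

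Libraries held 18532789 to 22906950 counts in PA, 17924988 to 20640622 with Na+ ICN and 20573886 to 21914112 with K+ ICN, and no library stood apart in depth. Levels are given as CPM, counts relative to the library total after scaling by TMM factors, which lay between 0.991 and 1.01. The label of the cells was checked against 15 neuron markers, all above 1 CPM, whose summed level was 7253 to 7322 CPM in PA, 6989 to 7241 with Na+ ICN and 6584 to 6666 with K+ ICN. The cultures also held glial RNA. The summed level of 20 astrocyte and radial glia markers was 1833 to 1890 CPM in PA, 2133 to 2236 with Na+ ICN and 2115 to 2170 with K+ ICN. In bulk RNA, more cells of a type and more RNA per cell of that type cannot be told apart.

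Genes of the ATF4 and amino acid arm were higher, and several genes of the ER chaperone arm lower, in cultures with the ion-carrying materials. Against PA, 9 of the 25 genes of the ATF4 and amino acid arm were higher with Na+ ICN and 15 of 25 were higher with K+ ICN, and 0 were lower in either comparison by edgeR, DESeq2 or limma voom, nor at an unadjusted edgeR p under 0.05. Over all genes tested, 10.9% were called with Na+ ICN (5.63% higher and 5.22% lower) and 15.8% with K+ ICN (8.15% higher and 7.68% lower). Calls are those with an adjusted p under 0.05 (edgeR quasi-likelihood test, Benjamini-Hochberg). In the ER chaperone arm, 7 of 15 genes were lower and 1 was higher with Na+ ICN, and 3 of 15 were lower and 1 was higher with K+ ICN. The single higher gene of this arm was the same in both comparisons, the degradation factor Herpud1. The median log2 fold change of the ATF4 arm was 0.15 with Na+ ICN and 0.31 with K+ ICN, that of the ER chaperone arm -0.11 and -0.06, and that of all genes tested 0.0036 and 0.0031. In numbers, 855 genes were higher and 793 lower with Na+ ICN, and 1237 higher and 1166 lower with K+ ICN. Scaling by upper quartiles raised the median of all genes to 0.025 and 0.021, gave 1042 higher and 552 lower with Na+ ICN and 1440 higher and 902 lower with K+ ICN, and left 4 chaperone-arm genes lower with Na+ ICN and 1 with K+ ICN. Both comparisons used the same 3 PA libraries. The changes were modest in size. Among called genes with a mean of at least 5 CPM, the ATF4 arm moved by 8.44% (Atf4 with Na+ ICN) to 56.98% (Chac1 with K+ ICN), and the ER arm fell by 7.39% (Hyou1 with K+ ICN) to 17.8% (Hyou1 with Na+ ICN). Leaving out single libraries changed the chaperone counts, giving 3 to 8 genes lower with Na+ ICN and 1 to 3 with K+ ICN. The lowest values came without Na+ ICN replicate 2 in the first case, and in the second, where the count was 1, without any of the 3 K+ ICN libraries or without PA replicate 1 or 3.

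**Figure D1:**
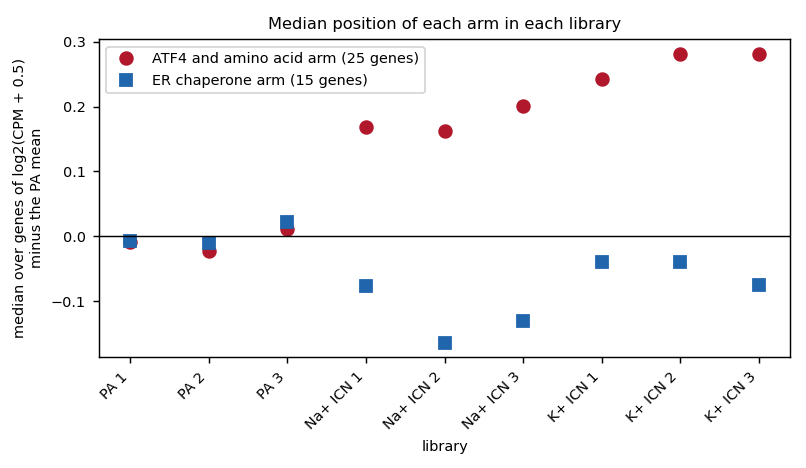
Median over the genes of each arm of the log2(CPM + 0.5) level minus its mean in the 3 PA libraries (y axis), for each of the 9 libraries (x axis). Circles, the 25 genes of the ATF4 and amino acid arm, lie between 0.16 and 0.28 in the 6 libraries from ion-carrying materials, and squares, the 15 genes of the ER chaperone arm, lie between -0.16 and -0.04 there.

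The medians were alike within a treatment. The ATF4 arm stood at 0.17, 0.16 and 0.20 in the 3 Na+ ICN libraries and at 0.24, 0.28 and 0.28 in the 3 K+ ICN libraries, so both groups lay apart from PA and from each other. The ER chaperone arm stood at -0.08, -0.16 and -0.13 with Na+ ICN and at -0.04, -0.04 and -0.07 with K+ ICN. In each of the 6 libraries, 18 to 23 of the 25 ATF4-arm genes were above the highest PA library and 8 to 13 of the 15 chaperone-arm genes were below the lowest. Over all genes tested, 31.4% to 32.3% were above the highest PA library and 30% to 31.8% were below the lowest in a treated library. All 3 libraries of a group were above PA for 13.5% of genes with Na+ ICN and 16.2% with K+ ICN, and below PA for 13.2% and 15.8%.

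**Figure D2:**
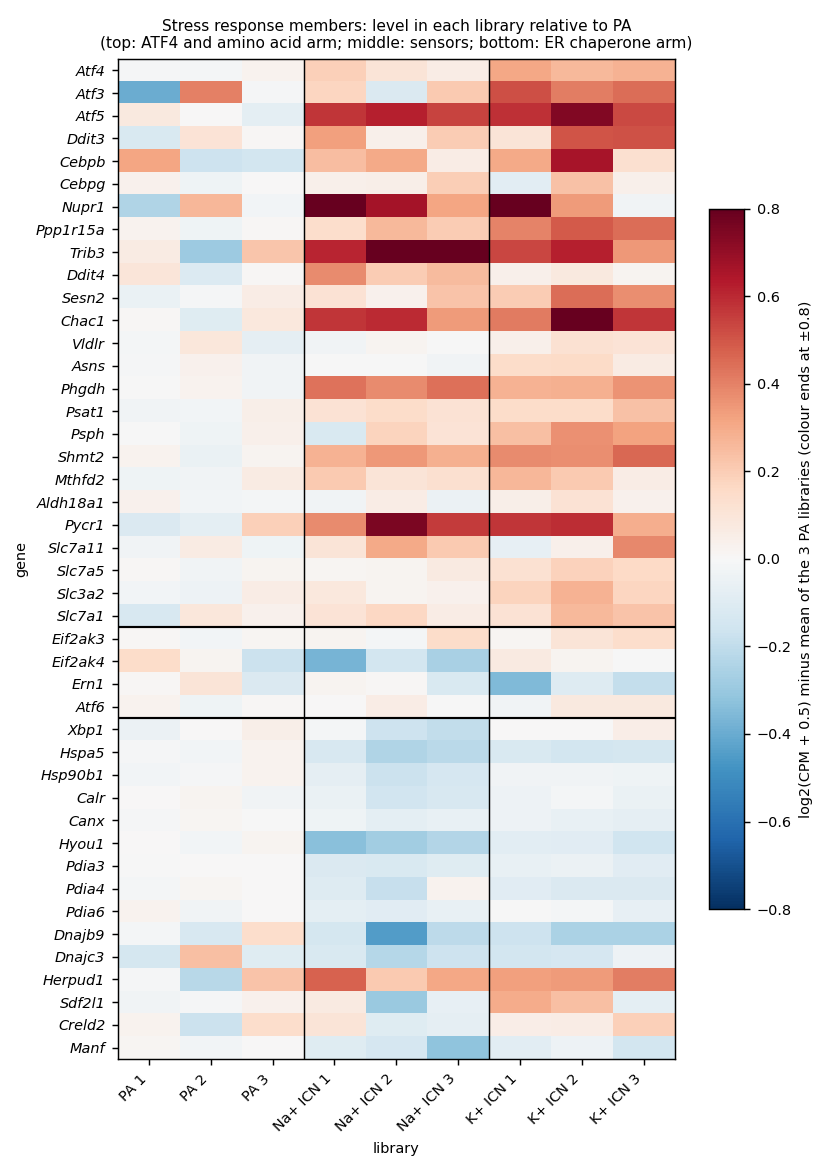
Level of each of the 44 genes (rows) in each of the 9 libraries (columns) as log2(CPM + 0.5) minus the mean of the 3 PA libraries, red above and blue below. The upper block, the ATF4 and amino acid arm, is mostly red in the Na+ ICN and K+ ICN columns, the middle block holds the 4 sensors, and the lower block, the ER chaperone arm, is mostly pale blue apart from Herpud1.

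The arms also differ in the DNA next to their start sites. Promoter windows, from 250 bases before to 50 after the start, were found for 40 of the 44 genes in RefSeq (GRCm38.p6), all but Atf6, Hyou1, Manf and Slc7a5. The 40 genes had 45 windows, and a gene was counted once if any of its windows held the element. The C/EBP-ATF response element, which ATF4 binds with a C/EBP partner, was searched as TGATGNAA or TTNCATCA on either strand. It was present in 8 of 24 ATF4-arm genes and in 1 of 13 chaperone-arm genes. The share was 4.51% of 27025 genes with a window and 2.77% of the 11735 of them that were tested. The ER stress response element is bound by NF-Y together with ATF6. It was searched on either strand as CCAAT and CCACG with 9 bases between them. The element was in 0 of 24 ATF4-arm genes, in 7 of 13 chaperone-arm genes, in 0.137% of genes with a window and in 0.153% of tested ones. Its shorter relative, ATTGG and CCACG with 1 base between them on either strand, occurred in Herpud1. The share was 0.0444% of genes with a window and 0.0767% of tested ones. None of the windows of the 40 genes held TGACGTGG or CCACGTCA, the unfolded protein response element. That element was present in 0.714% of genes with a window and in 0.98% of tested ones. Several of these genes are textbook examples through which the elements were first described, so their presence is part of how the gene sets are known.

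The stretches shown first are those of ATF4-arm genes, with the C/EBP-ATF element in capitals, followed by Herpud1, which carries that element and the short ER stress element.
Chac1 (chr2:119351024-119351081, plus strand): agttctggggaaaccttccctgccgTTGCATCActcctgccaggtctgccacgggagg
Pycr1 (chr11:120643819-120643876, minus strand): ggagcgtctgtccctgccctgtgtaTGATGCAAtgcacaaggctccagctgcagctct
Slc7a11 (chr3:50443628-50443704, minus strand): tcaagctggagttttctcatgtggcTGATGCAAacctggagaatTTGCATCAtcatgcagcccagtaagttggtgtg
Asns (chr6:7693220-7693237, minus strand): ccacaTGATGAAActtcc
Trib3 (chr2:152344034-152344051, minus strand): caggtTTACATCAgccgg
Herpud1 (chr8:94386292-94386412, plus strand): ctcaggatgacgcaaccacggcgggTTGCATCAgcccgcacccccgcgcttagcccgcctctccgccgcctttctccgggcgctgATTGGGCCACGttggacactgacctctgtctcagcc
The longer stretches lie in no annotated exon, and those of Asns and Trib3 were shortened because a wider stretch touched one or the match follows the start site. The elements of Chac1, Pycr1, Slc7a11 and Asns lie before the start site and that of Trib3 lies after it. Slc7a11 holds 2 matches, and no printed match overlaps another.

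The chaperone genes that carry the full ER stress element, in capitals, include 3 that were lower with Na+ ICN (Hspa5, Hsp90b1 and Calr) and a pair that passed no test (Canx and Dnajc3).
Hspa5 (chr2:34772020-34772048, plus strand): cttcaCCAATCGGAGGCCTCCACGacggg
Hsp90b1 (chr10:86705528-86705556, minus strand): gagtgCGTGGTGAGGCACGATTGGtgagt
Calr (chr8:84847050-84847118, minus strand): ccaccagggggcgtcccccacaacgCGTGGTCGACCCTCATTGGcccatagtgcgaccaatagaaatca
Canx (chr11:50325775-50325843, minus strand): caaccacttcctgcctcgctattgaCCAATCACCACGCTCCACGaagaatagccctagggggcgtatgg
Dnajc3 (chr14:118937802-118937870, plus strand): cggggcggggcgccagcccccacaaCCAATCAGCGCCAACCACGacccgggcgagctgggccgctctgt
The window of Hsp90b1 holds 2 such elements, of which the one nearer the start site is shown. The stretches of Hspa5 and Hsp90b1 were shortened for the same reason, and the longer ones lie in no annotated exon. A match is a run of letters and not a measured binding site. Of the 8 ATF4-arm genes with a C/EBP-ATF match, 3 were higher with Na+ ICN and 3 with K+ ICN, against 6 and 11 of the 16 whose window had none. Over all genes tested, 5.63% were higher with Na+ ICN and 8.15% with K+ ICN. Atf3, Nupr1 and Trib3, with a match, had PA means of 1.55, 0.463 and 1.71 CPM. Their standard errors with K+ ICN were 0.31, 0.53 and 0.27. Cebpb, without a match, was also low (2.03 CPM, SE 0.27). Trib3 was nevertheless called with Na+ ICN. Asns, Vldlr and Slc7a11, also with a match, had higher PA means of 176, 136 and 11.4 CPM. None of them was called with Na+ ICN, and of them Asns alone was called with K+ ICN. All 25 genes of the arm had a log2 fold change above 0 with K+ ICN. The call counts do not compare the size of the change, and why they differ was not tested. Of the 7 chaperone-arm genes with the full ER stress element, 3 were lower with Na+ ICN and 1 with K+ ICN, against 2 and 1 of the 6 without it. Over all genes tested, 5.22% were lower with Na+ ICN and 7.68% with K+ ICN.

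Among the transcription factors of the ATF4 arm, Atf4 and Atf5 were higher with both materials and Ddit3 was higher with K+ ICN. Atf4, the central activator, measured 215, 215 and 221 CPM in PA, 248, 233 and 226 with Na+ ICN, and 269, 260.0 and 264 with K+ ICN. All 6 treated libraries were above the PA libraries, and all 3 K+ ICN libraries were above all Na+ ICN libraries. The rise was 21.8% with K+ ICN (log2 fold change 0.28, SE 0.034, edgeR adjusted p = 1.42e-08) and 8.44% with Na+ ICN (log2 fold change 0.12, SE 0.035, edgeR adjusted p = 0.0209). The K+ ICN level exceeded the Na+ ICN level by 12.3% (log2 fold change 0.17, SE 0.034, edgeR adjusted p = 0.000654). The Na+ ICN call was lost when certain single libraries were left out, with the edgeR adjusted p in brackets. They were Na+ ICN replicate 1 (0.187), PA replicate 1 (0.0788) and PA replicate 2 (0.0808). The log2 fold change was then 0.080, 0.111 and 0.108, in the same order.

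Atf5, a close relative of Atf4 that is translated under the same control and is known for mitochondrial stress responses, measured 94.2, 89.5 and 84.6 CPM in PA, 133, 138 and 130.3 with Na+ ICN, and 134, 149 and 129 with K+ ICN. Its groups did not overlap with PA, and the Na+ ICN and K+ ICN libraries lay in the same range. It rose by 49.5% with Na+ ICN (log2 fold change 0.58, SE 0.048, edgeR adjusted p = 6.63e-12) and by 53.9% with K+ ICN (log2 fold change 0.62, SE 0.047, edgeR adjusted p = 3.33e-13). The difference between both materials had a 95% interval of -0.05 to 0.14 on the log2 scale. Exons of Atf5 overlap those of Nup62 on the other strand, and the strand setting of the counting is not given in the sources used here.

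Ddit3 encodes CHOP, the factor linked to cell death under lasting ER stress. It measured 12.5, 14.7 and 13.7 CPM in PA, 17.2, 14.02 and 15.8 with Na+ ICN, and 14.6, 19.5 and 19.6 with K+ ICN. The lowest K+ ICN library was below the highest PA library, so the ranges overlapped, while the mean rose by 31.1% (log2 fold change 0.39, SE 0.11, edgeR adjusted p = 0.0116). The edgeR adjusted p was above 0.05 without K+ ICN replicate 2 (0.0898), K+ ICN replicate 3 (0.102) or PA replicate 1 (0.0809). With Na+ ICN the difference did not pass (log2 fold change 0.20, edgeR adjusted p = 0.298). Exons of Ddit3 overlap those of the methionyl-tRNA synthetase Mars1 on the other strand, and Mars1 was also called higher with K+ ICN.

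The remaining factors passed no test. Cebpg, a binding partner of ATF4, lay between 41.05 and 49.5 CPM over all 9 libraries. Cebpb, a second partner, and Atf3, a repressor and activator that ATF4 induces, were near 2 CPM, with all values between 1.02 and 3.43 CPM. The 3 K+ ICN libraries of Atf3, at 2.16 to 2.36 CPM, were all above the highest PA library at 2.15 CPM, a difference that did not pass (log2 fold change 0.54, SE 0.31, edgeR adjusted p = 0.272). Nupr1, a small stress-induced chromatin protein, was lowest of the 44 genes, with 6 to 12 counts per PA library and log2 differences whose intervals spanned -0.02 to 2.12 with Na+ ICN and -0.27 to 1.87 with K+ ICN.

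Of 6 genes of feedback and growth control, 3 were higher with Na+ ICN (Trib3, Ddit4 and Chac1) and 3 with K+ ICN (Ppp1r15a, Sesn2 and Chac1). The shares of all genes tested that were higher were 5.63% with Na+ ICN and 8.15% with K+ ICN. Ppp1r15a encodes GADD34, which directs the removal of phosphate from eIF2 and so ends the response. It measured 32.3, 30.8 and 31.8 CPM in PA, 34.9, 37.9 and 36.5 with Na+ ICN, and 41.9, 44.7 and 43.4 with K+ ICN. The 3 groups did not overlap and rose in the order PA, Na+ ICN, K+ ICN. Against PA the increase was 36.8% with K+ ICN (log2 fold change 0.45, SE 0.07, edgeR adjusted p = 3.04e-06), while the 15.1% with Na+ ICN did not pass the threshold (log2 fold change 0.20, SE 0.071, edgeR adjusted p = 0.0578) except with upper-quartile scaling (edgeR adjusted p = 0.0331). K+ ICN exceeded Na+ ICN by 18.9% (log2 fold change 0.25, SE 0.07, edgeR adjusted p = 0.0172), a call lost without K+ ICN replicate 2 (0.0966), K+ ICN replicate 3 (0.0645) or Na+ ICN replicate 1 (0.0984), with the edgeR adjusted p in brackets.

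Sesn2, a sestrin that restrains the growth kinase mTORC1 when leucine is short, measured 29.8, 30.8 and 32.3 CPM in PA, 33.5, 31.7 and 36.3 with Na+ ICN, and 35.6, 42.4 and 40.1 with K+ ICN. The K+ ICN libraries lay above PA, with a rise of 27.1% (log2 fold change 0.35, SE 0.076, edgeR adjusted p = 0.000754), and overlapped with Na+ ICN. Chac1, an enzyme that breaks down glutathione and a sensitive target of ATF4, measured 11.7, 10.8 and 12.3 CPM in PA, 17.4, 17.8 and 14.8 with Na+ ICN, and 15.6, 21.7 and 17.4 with K+ ICN. Both treated groups were above PA without overlap. The rise was 43.2% with Na+ ICN (log2 fold change 0.52, SE 0.12, edgeR adjusted p = 0.00175) and 56.98% with K+ ICN (log2 fold change 0.65, SE 0.11, edgeR adjusted p = 2.92e-05), and the difference between the materials had an interval of -0.09 to 0.36 on the log2 scale.

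Ddit4 differed between the ion-carrying materials in the other direction. It encodes REDD1, an inhibitor of mTORC1 that also responds to hypoxia and glucocorticoids. Its level was 82.6, 71.6 and 77.6 CPM in PA, 101, 88.8 and 91.8 with Na+ ICN, and 79.4, 81.6 and 78.2 with K+ ICN. The Na+ ICN libraries stood above all others, and the K+ ICN libraries lay within the PA range. It rose by 21.3% with Na+ ICN (log2 fold change 0.28, SE 0.052, edgeR adjusted p = 0.000176) and did not pass with K+ ICN (log2 fold change 0.04, SE 0.052, edgeR adjusted p = 0.644). In the direct comparison it was 14.9% lower with K+ ICN (log2 fold change -0.23, SE 0.052, edgeR adjusted p = 0.00182), the only ATF4-arm gene called lower there. Trib3, a pseudokinase that dampens ATF4 and AKT, was low, with 24 to 47 counts per PA library. Its level was 1.29 to 2.06 CPM in PA, 2.85 to 3.38 with Na+ ICN and 2.28 to 2.87 with K+ ICN, so both treated groups were above PA. It was called with Na+ ICN (log2 fold change 0.89, SE 0.27, edgeR adjusted p = 0.0231) and not with K+ ICN (log2 fold change 0.60, SE 0.27, edgeR adjusted p = 0.133). The first call was lost without Na+ ICN replicate 2 (0.0728), Na+ ICN replicate 3 (0.0708), PA replicate 1 (0.0527) or PA replicate 2 (0.113), with the edgeR adjusted p in brackets. Vldlr, a lipoprotein and reelin receptor that ATF4 can induce, lay between 129 and 148 CPM and passed no test, except with K+ ICN without PA replicate 2 (edgeR adjusted p = 0.0352).

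**Figure D3:**
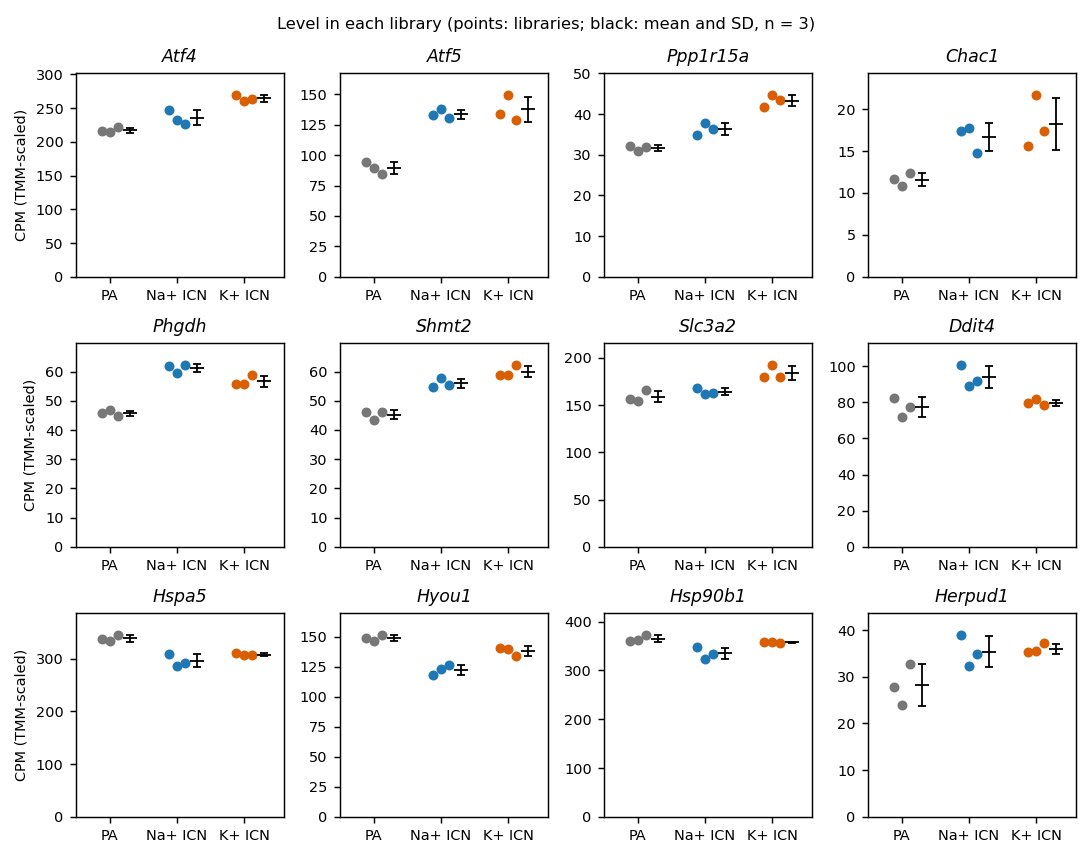
Level (CPM, y axis from 0) of 12 of the genes in each library of PA, Na+ ICN and K+ ICN (x axis), with the mean and SD of 3 libraries in black. Atf4 and Ppp1r15a step up from PA to Na+ ICN to K+ ICN, Ddit4 is raised with Na+ ICN alone, Hspa5 and Hyou1 are lowest with Na+ ICN, and Herpud1 is raised with both.

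Of the 8 enzymes of amino acid and folate metabolism, 4 were higher with Na+ ICN and 6 with K+ ICN, and none was lower. Of all genes tested, 5.63% were higher with Na+ ICN and 8.15% with K+ ICN. Serine is made from a glycolytic intermediate by PHGDH, PSAT1 and PSPH in turn, and SHMT2 converts it to glycine in mitochondria while passing on a carbon unit to folate. Phgdh, the first enzyme, measured 45.7, 46.7 and 44.8 CPM in PA, 61.9, 59.6 and 62.3 with Na+ ICN, and 55.6, 55.7 and 58.9 with K+ ICN. The treated libraries were all above PA, and the Na+ ICN libraries were all above the K+ ICN libraries. It rose by 34.1% with Na+ ICN (log2 fold change 0.42, SE 0.059, edgeR adjusted p = 9.12e-07) and by 24.1% with K+ ICN (log2 fold change 0.31, SE 0.059, edgeR adjusted p = 0.000100), and the direct difference did not pass (log2 fold change -0.11, edgeR adjusted p = 0.315). Phgdh is also strongly expressed by astrocytes and radial glia, whose marker sums were higher in both treated groups. The part of glial RNA in this rise was not tested.

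Psat1, the second enzyme, measured 131, 132 and 138 CPM in PA, 145, 148 and 145 with Na+ ICN, and 148, 148 and 157 with K+ ICN. Every treated library exceeded every PA library. The rise was 12.9% with K+ ICN (log2 fold change 0.18, SE 0.039, edgeR adjusted p = 0.000835) and 9.18% with Na+ ICN (log2 fold change 0.13, SE 0.039, edgeR adjusted p = 0.0282), the latter lost without Na+ ICN replicate 2 (0.113), PA replicate 1 (0.119) or PA replicate 2 (0.102), with the edgeR adjusted p in brackets. Psph, the last enzyme, measured 20.1, 19.6 and 20.7 CPM in PA, 18.5, 22.9 and 21.8 with Na+ ICN, and 23.9, 26.1 and 25.3 with K+ ICN. The K+ ICN libraries were above all others, and the Na+ ICN libraries spanned the PA range. Psph rose by 24.6% with K+ ICN (log2 fold change 0.32, SE 0.088, edgeR adjusted p = 0.00888), with an edgeR adjusted p of 0.0506 without K+ ICN replicate 2. Its exons overlap those of the chaperonin gene Cct6a on the other strand.

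Shmt2 measured 46.2, 43.5 and 46 CPM in PA, 54.9, 57.6 and 55.2 with Na+ ICN, and 58.9, 58.8 and 62.2 with K+ ICN. The 3 groups did not overlap and followed the order PA, Na+ ICN, K+ ICN. It rose by 23.5% with Na+ ICN (log2 fold change 0.30, SE 0.06, edgeR adjusted p = 0.000358) and by 32.5% with K+ ICN (log2 fold change 0.41, SE 0.06, edgeR adjusted p = 1.12e-06). Mthfd2, the next enzyme of the mitochondrial folate pathway, lay between 37.1 and 45.9 CPM and passed no test. It came past the threshold for K+ ICN with upper-quartile scaling (edgeR adjusted p = 0.0408) or without K+ ICN replicate 3 (edgeR adjusted p = 0.0350).

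Pycr1, which completes proline synthesis in mitochondria, measured 11.04, 11.3 and 13.7 CPM in PA, 15.7, 20.5 and 17.9 with Na+ ICN, and 18.03, 18.3 and 14.8 with K+ ICN. Its treated libraries were all above PA, and Na+ ICN and K+ ICN overlapped. The rise was 49.3% with Na+ ICN (log2 fold change 0.58, SE 0.12, edgeR adjusted p = 0.000381) and 41.1% with K+ ICN (log2 fold change 0.50, SE 0.11, edgeR adjusted p = 0.00132). Aldh18a1, the enzyme at the start of proline synthesis, stayed between 70.8 and 79.2 CPM and passed no test. Asparagine synthetase, Asns, a classical ATF4 target, measured 175, 181 and 173 CPM in PA, 176, 176 and 173 with Na+ ICN, and 195, 196 and 184 with K+ ICN. Na+ ICN lay within the PA range, and the K+ ICN libraries lay above both. Asns rose by 8.85% with K+ ICN against PA (log2 fold change 0.12, SE 0.036, edgeR adjusted p = 0.0137) and by 9.72% against Na+ ICN (log2 fold change 0.13, SE 0.036, edgeR adjusted p = 0.0135). The first call was lost without K+ ICN replicate 1 (0.0704), K+ ICN replicate 2 (0.0796) or PA replicate 3 (0.0882), and the second without K+ ICN replicate 1 (0.0759), K+ ICN replicate 2 (0.0906) or Na+ ICN replicate 3 (0.0515), each with the edgeR adjusted p in brackets.

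Of the 4 amino acid carriers, 3 were higher with K+ ICN and 0 were called with Na+ ICN by edgeR. Among all genes tested, 8.15% were higher with K+ ICN and 5.63% with Na+ ICN. With Na+ ICN 1 carrier had an unadjusted p under 0.05, and DESeq2 and limma voom each called 0. Slc3a2 and Slc7a5 encode the heavy and light chain of the carrier LAT1, which brings in large neutral amino acids such as leucine. Slc3a2 measured 157, 154 and 166 CPM in PA, 168, 161 and 163 with Na+ ICN, and 179.9, 192 and 179 with K+ ICN. The K+ ICN libraries were above all others, and the PA and Na+ ICN libraries overlapped. Slc7a5 measured 182, 178 and 184 CPM in PA, 183, 184 and 191 with Na+ ICN, and 197, 206 and 202 with K+ ICN. It showed the same ordering of groups. With K+ ICN, Slc3a2 rose by 15.6% against PA (log2 fold change 0.21, SE 0.038, edgeR adjusted p = 5.62e-05) and by 11.9% against Na+ ICN (log2 fold change 0.16, SE 0.038, edgeR adjusted p = 0.00340). Slc7a5 rose by 11.4% against PA (log2 fold change 0.16, SE 0.035, edgeR adjusted p = 0.00109) and by 8.54% against Na+ ICN (log2 fold change 0.12, SE 0.035, edgeR adjusted p = 0.0300). The differences from Na+ ICN were lost for Slc3a2 without K+ ICN replicate 2 (0.0703) and for Slc7a5 without K+ ICN replicate 2 (0.156), K+ ICN replicate 3 (0.1002), Na+ ICN replicate 1 (0.110) or Na+ ICN replicate 2 (0.111), with the edgeR adjusted p in brackets.

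Slc7a1, the carrier of arginine and lysine, measured 141, 164 and 157 CPM in PA, 165, 172 and 159.7 with Na+ ICN, and 166, 184 and 179.9 with K+ ICN. The K+ ICN libraries were above PA and overlapped with Na+ ICN. It rose by 14.8% with K+ ICN (log2 fold change 0.20, SE 0.047, edgeR adjusted p = 0.00329). With Na+ ICN it did not pass (log2 fold change 0.11, edgeR adjusted p = 0.168), except without PA replicate 2 (edgeR adjusted p = 0.0438) or with the replicate number as a block (edgeR adjusted p = 0.0472). Slc7a11, the cystine and glutamate exchanger that feeds glutathione synthesis, lay between 10.8 and 14.97 CPM and passed no test.

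**Figure D4:**
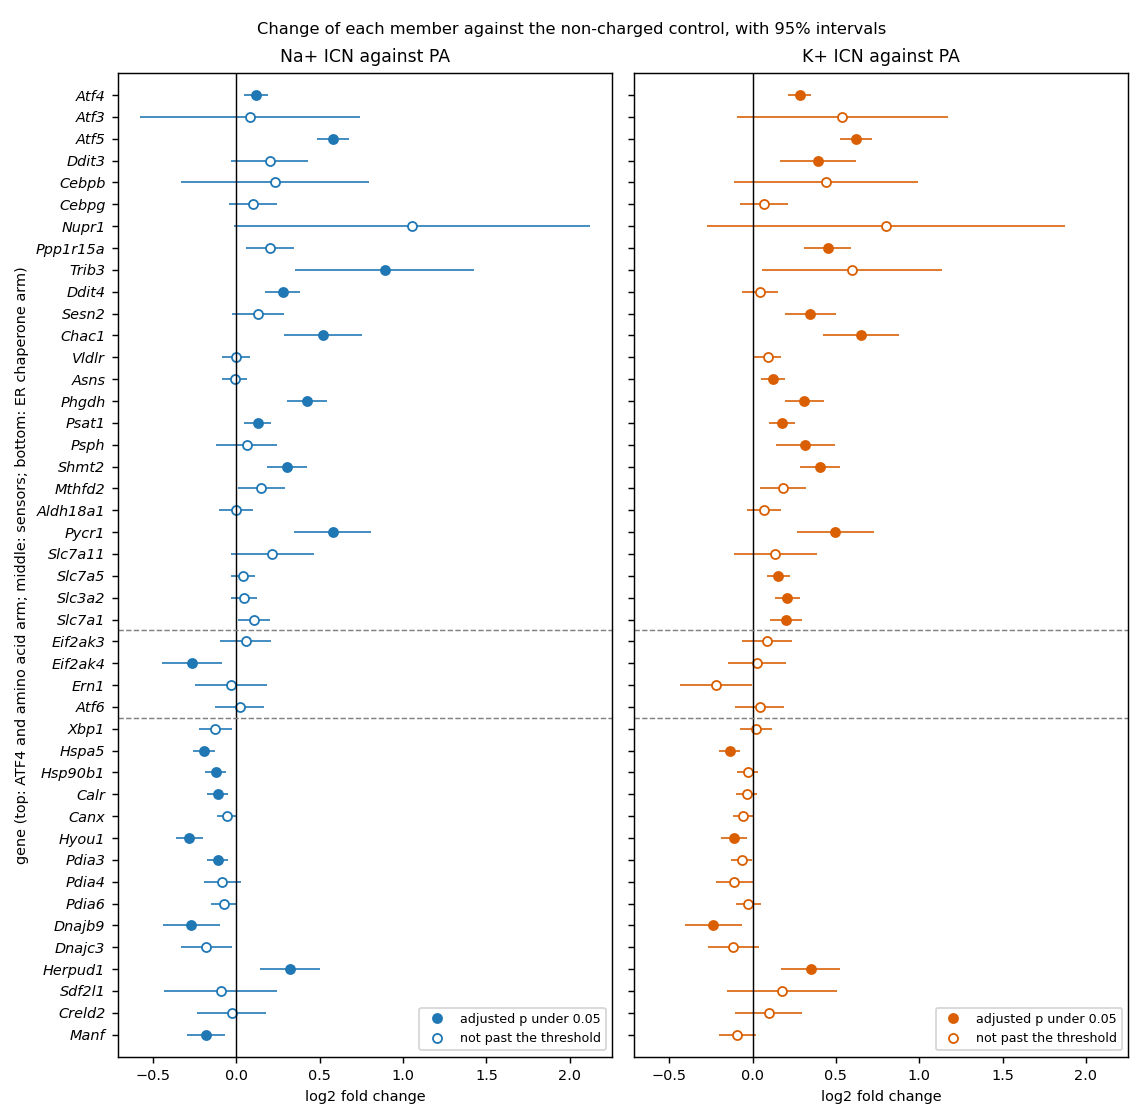
Log2 fold change against PA (x axis) with its 95% interval for each of the 44 genes (y axis), with Na+ ICN on the left and K+ ICN on the right. Filled points have an adjusted p under 0.05. In the upper block no filled point lies below 0, and in the lower block only Herpud1 is filled above 0.

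Of the 4 sensors, Eif2ak4 alone was called. Among all genes tested, 10.9% were called with Na+ ICN, 15.8% with K+ ICN and 6.58% between the materials. Eif2ak3, which encodes PERK, lay between 30.1 and 33.96 CPM, Atf6 between 32.7 and 35.4 CPM, and Ern1, which encodes IRE1, between 12.1 and 16.8 CPM. None of these 3 passed a test in any of the 3 comparisons, and their 95% intervals against PA stayed between -0.44 and 0.24 on the log2 scale. The interval of Ern1 with K+ ICN lay just below 0 (log2 fold change -0.22, SE 0.11, edgeR adjusted p = 0.176). Eif2ak4, which encodes GCN2, measured 27.2, 24.96 and 21.8 CPM in PA, 18.9, 22.1 and 20.4 with Na+ ICN, and 25.8, 24.9 and 24.5 with K+ ICN. The Na+ ICN range overlapped with PA at its upper end, and the K+ ICN libraries were all above the Na+ ICN libraries. It was called lower with Na+ ICN (log2 fold change -0.27, SE 0.09, edgeR adjusted p = 0.0452) and higher with K+ ICN than with Na+ ICN (log2 fold change 0.29, SE 0.089, edgeR adjusted p = 0.0331). The first call was lost with DESeq2 (adjusted p = 0.0646), with limma voom (adjusted p = 0.0902) and, in edgeR, with upper-quartile scaling (0.0700), with the 6 libraries compared alone (0.0672), with no low-count filter (0.05005), and without K+ ICN replicate 1 (0.0532), K+ ICN replicate 2 (0.0537), K+ ICN replicate 3 (0.0536), Na+ ICN replicate 1 (0.187), Na+ ICN replicate 3 (0.0997), PA replicate 1 (0.273) or PA replicate 2 (0.116). The second was lost with limma voom (adjusted p = 0.0583) and, in edgeR, without K+ ICN replicate 1 (0.124), K+ ICN replicate 2 (0.0827), K+ ICN replicate 3 (0.0724), Na+ ICN replicate 1 (0.172) or Na+ ICN replicate 3 (0.0843).

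In the ER chaperone arm 4 of 5 chaperones, 1 of 3 disulfide isomerases and 1 of 2 J proteins were lower with Na+ ICN. With K+ ICN the counts were 2, 0 and 1. Of all genes tested, 5.22% were lower with Na+ ICN and 7.68% with K+ ICN, and these subgroups are small. On the K+ ICN side, the Hyou1 and Dnajb9 calls were close to the threshold. On a per-length scale, several were among the most abundant messenger RNAs of the 44 genes, with PA levels of 196 CPM per kb for Calr, 113 for Hsp90b1, 102 for Pdia3 and 92.1 for Hspa5, next to 108 for Atf4. Hspa5 encodes BiP, the HSP70 chaperone of the ER that also holds the sensors inactive. It measured 336, 333 and 345 CPM in PA, 309, 286 and 291 with Na+ ICN, and 310.0, 306 and 307 with K+ ICN. Both treated groups were below PA without overlap. The fall was 12.6% with Na+ ICN (log2 fold change -0.19, SE 0.032, edgeR adjusted p = 2.16e-05) and 9.08% with K+ ICN (log2 fold change -0.14, SE 0.032, edgeR adjusted p = 0.00138).

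Hyou1, the exchange factor that recharges BiP, measured 149, 147 and 151 CPM in PA, 118, 123 and 127 with Na+ ICN, and 141, 139.8 and 134 with K+ ICN. The 3 groups did not overlap, with Na+ ICN lowest and K+ ICN between. It fell by 17.8% with Na+ ICN (log2 fold change -0.28, SE 0.04, edgeR adjusted p = 1.08e-06) and by 7.39% with K+ ICN (log2 fold change -0.11, SE 0.039, edgeR adjusted p = 0.0460), and it was 12.6% higher with K+ ICN than with Na+ ICN (log2 fold change 0.17, SE 0.04, edgeR adjusted p = 0.00299). The K+ ICN call against PA was close to the threshold. It was lost with limma voom (adjusted p = 0.0524), with upper-quartile scaling (edgeR adjusted p = 0.110), with no low-count filter (edgeR adjusted p = 0.0647), and without K+ ICN replicate 1 (0.0574), K+ ICN replicate 2 (0.0745), K+ ICN replicate 3 (0.186), Na+ ICN replicate 2 (0.0516), PA replicate 1 (0.102), PA replicate 2 (0.0595) or PA replicate 3 (0.172).

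Dnajb9, a J protein that helps BiP act on IRE1 and on degradation substrates, measured 30.7, 28.4 and 34.3 CPM in PA, 28.1, 22.6 and 26.7 with Na+ ICN, and 27.6, 25.9 and 25.96 with K+ ICN. Both treated groups lay below PA, the Na+ ICN group narrowly so. It was called lower with Na+ ICN (log2 fold change -0.27, SE 0.085, edgeR adjusted p = 0.0303) and with K+ ICN (log2 fold change -0.23, SE 0.084, edgeR adjusted p = 0.0486). The Na+ ICN call was lost without Na+ ICN replicate 2 (0.239), PA replicate 1 (0.0645) or PA replicate 3 (0.250), and the K+ ICN call without K+ ICN replicate 1 (0.0643), K+ ICN replicate 2 (0.142), K+ ICN replicate 3 (0.134), PA replicate 1 (0.0868) or PA replicate 3 (0.321), each with the edgeR adjusted p in brackets. The K+ ICN call was also lost with DESeq2 (adjusted p = 0.0749), with limma voom (adjusted p = 0.0614) and, in edgeR, with upper-quartile scaling (adjusted p = 0.0743) or no low-count filter (adjusted p = 0.0504). Upper-quartile scaling also put the Na+ ICN call at the threshold and just outside it (edgeR adjusted p = 0.05001).

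Hsp90b1 encodes GRP94, the HSP90 chaperone of the ER. Its level was 360.3, 363 and 373 CPM in PA, 348, 324 and 333 with Na+ ICN, and 358, 358 and 357 with K+ ICN. The treated groups were both below PA, with Na+ ICN lowest. It fell by 8.28% with Na+ ICN (log2 fold change -0.12, SE 0.031, edgeR adjusted p = 0.00467), with an edgeR adjusted p of 0.0573 without Na+ ICN replicate 2. With K+ ICN it did not pass (log2 fold change -0.03, SE 0.031, edgeR adjusted p = 0.579). Calr, the lectin chaperone calreticulin that also buffers calcium, measured 428, 434 and 419 CPM in PA, 411, 384 and 390.1 with Na+ ICN, and 416, 422 and 411 with K+ ICN. The Na+ ICN libraries were below PA and below K+ ICN, and K+ ICN overlapped with PA. It fell by 7.53% with Na+ ICN (log2 fold change -0.11, SE 0.03, edgeR adjusted p = 0.00932), a call lost without Na+ ICN replicate 2 (0.0851) or PA replicate 2 (0.0556), with the edgeR adjusted p in brackets.

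Pdia3, the disulfide isomerase that works with calreticulin, measured 280.1, 282 and 281 CPM in PA, 259.6, 258 and 263 with Na+ ICN, and 269.6, 272 and 264 with K+ ICN. The groups did not overlap, and Na+ ICN was lowest. It fell by 7.46% with Na+ ICN (log2 fold change -0.11, SE 0.031, edgeR adjusted p = 0.0138), a call lost without Na+ ICN replicate 2 (0.0587) or PA replicate 3 (0.0504) and with upper-quartile scaling (edgeR adjusted p = 0.0532). Manf, a secreted ER protein with neurotrophic activity, measured 73.4, 71.5 and 72.5 CPM in PA, 67.8, 65.9 and 57.8 with Na+ ICN, and 68.3, 70.5 and 65.3 with K+ ICN. Both treated groups were below PA and overlapped with each other. It fell by 11.98% with Na+ ICN (log2 fold change -0.18, SE 0.057, edgeR adjusted p = 0.0267), and the call was lost without Na+ ICN replicate 3 (0.236), PA replicate 1 (0.0916) or PA replicate 3 (0.0768) and with upper-quartile scaling (edgeR adjusted p = 0.0545). Exons of Manf overlap those of Rbm15b on the same strand and of Dcaf1 on the other, and exons of Hsp90b1 and Pdia3 overlap genes on the other strand, so their counts carry that uncertainty.

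Herpud1 was the only gene of its arm called higher than PA. It encodes a membrane protein of ER-associated degradation and, in the promoter stretch printed above, carries the C/EBP-ATF element as well as the short ER stress element. Its level was 27.8, 23.9 and 32.8 CPM in PA, 38.96, 32.4 and 34.8 with Na+ ICN, and 35.3, 35.5 and 37.3 with K+ ICN. The K+ ICN libraries were above PA, and the lowest Na+ ICN library was just below the highest PA library. It rose by 25% with Na+ ICN (log2 fold change 0.32, SE 0.088, edgeR adjusted p = 0.0123) and by 27.3% with K+ ICN (log2 fold change 0.35, SE 0.087, edgeR adjusted p = 0.00376). The Na+ ICN call was lost without Na+ ICN replicate 1 (0.0906), PA replicate 1 (0.0644) or PA replicate 2 (0.126) and the K+ ICN call without PA replicate 2 (0.0578), each with the edgeR adjusted p in brackets.

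The other 7 genes of this arm passed no test in any comparison. Xbp1, the factor spliced by IRE1, measured 86.96 to 92.7 CPM in PA, 78.2 to 88.97 with Na+ ICN and 89.9 to 93.4 with K+ ICN. Without Na+ ICN replicate 1, the highest of its group, Xbp1 was called lower with Na+ ICN against PA (edgeR adjusted p = 0.0177) and higher with K+ ICN than with Na+ ICN (edgeR adjusted p = 0.0103). Canx, the membrane-bound partner of calreticulin, lay between 406 and 433 CPM, with all treated libraries below PA (log2 fold change -0.06, edgeR adjusted p = 0.1996 with Na+ ICN and log2 fold change -0.06, edgeR adjusted p = 0.183 with K+ ICN). The isomerases Pdia4 and Pdia6 and the J protein Dnajc3 had log2 fold changes between -0.18 and -0.03 against PA. Sdf2l1, a cofactor of the J proteins, and Creld2, a lumenal protein induced by ER stress, were the least abundant of the arm, at 4.93 to 7.702 and 15.3 to 19.8 CPM.

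The direct comparison of K+ ICN with Na+ ICN asked whether levels differed between both ion-carrying materials. In the ATF4 arm 5 of 25 genes were higher with K+ ICN (Atf4, Ppp1r15a, Asns, Slc7a5 and Slc3a2) and 1 was lower (Ddit4), while 6.58% of all genes were called, 3.33% higher and 3.25% lower. In the ER arm Hyou1 alone was called, higher with K+ ICN, and among the sensors Eif2ak4. The median log2 difference was 0.09 over the ATF4 arm and 0.06 over the ER arm, against -0.00044 over all genes tested, and 14 of the 15 ER-arm genes had a positive difference, 1 of them called. Genes raised by both materials, other than Atf4, had differences whose 95% intervals included 0. Psat1 had an interval of -0.03 to 0.13, Pycr1 of -0.31 to 0.14 and Shmt2 of -0.02 to 0.22 on the log2 scale. Leaving out single libraries left 1 to 5 ATF4-arm genes higher with K+ ICN, the lowest count coming without K+ ICN replicate 2, and 1 to 4 ER-arm genes, the highest coming without Na+ ICN replicate 1, where Xbp1, Hsp90b1 and Calr were added. Hsp90b1 was also called with DESeq2 (adjusted p = 0.0280), with the filter of 1 CPM in 3 libraries (edgeR adjusted p = 0.0381) and with the replicate number as a block (edgeR adjusted p = 0.0327), and Xbp1 with that block (edgeR adjusted p = 0.0472). Sesn2 was called higher with K+ ICN without K+ ICN replicate 1 (edgeR adjusted p = 0.0281) or Na+ ICN replicate 3 (0.0431). Atf4, Ddit4 and Hyou1 were called under each of the 17 alternative settings tried.

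**Figure D5:**
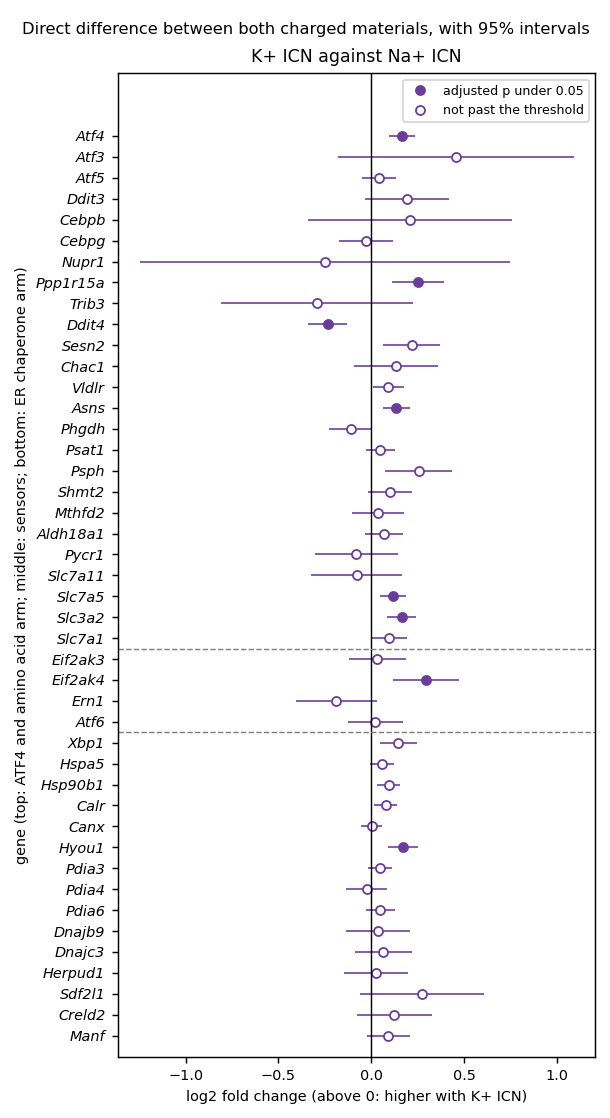
Log2 fold change of K+ ICN against Na+ ICN (x axis, above 0 when higher with K+ ICN) with its 95% interval for each of the 44 genes (y axis). Filled points have an adjusted p under 0.05, and they are Atf4, Ppp1r15a, Asns, Slc7a5, Slc3a2, Eif2ak4 and Hyou1 to the right of 0 and Ddit4 to the left.

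Genes outside the 44 that belong to the same pathways gave further measurements. Aminoacyl-tRNA synthetases join amino acids to their transfer RNAs and include many ATF4 targets. They were called higher for 10 of 20 with K+ ICN, 1 of 20 with Na+ ICN and 5 of 20 in K+ ICN against Na+ ICN. The shares called higher over all genes tested were 8.15%, 5.63% and 3.33%, in the same order. By edgeR 0 synthetases were lower, with 3 lower at an unadjusted p under 0.05 with K+ ICN, 2 with Na+ ICN and 1 in K+ ICN against Na+ ICN. Across the alternative settings, DESeq2 included, 0 or 1 were called lower with K+ ICN and 0 in the other 2 comparisons. The seryl enzyme Sars rose from 191 ± 6.19 to 220.5 ± 7.36 CPM with K+ ICN (SD, n = 3; log2 fold change 0.21, SE 0.036, edgeR adjusted p = 2.84e-05), and the alanyl enzyme Aars from 302 ± 8.44 to 339 ± 4.99 CPM (log2 fold change 0.16, SE 0.031, edgeR adjusted p = 9.44e-05). Aars and the cysteinyl enzyme Cars were also higher with K+ ICN than with Na+ ICN (log2 fold change 0.20, edgeR adjusted p = 4.37e-06 for Aars and log2 fold change 0.24, edgeR adjusted p = 6.58e-05 for Cars). The threonyl enzyme Tars was the single synthetase called with Na+ ICN (log2 fold change 0.26, SE 0.054, edgeR adjusted p = 0.000645).

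Of 14 tested genes that are otherwise linked to ATF4 and amino acid supply, 4 were higher with Na+ ICN and 7 with K+ ICN, and none was lower. Over all genes tested, 5.63% were higher with Na+ ICN and 8.15% with K+ ICN. Slc7a3, a carrier of arginine and lysine, measured 20.2, 21.9 and 20.5 CPM in PA, 31.3, 27.4 and 32.1 with Na+ ICN, and 33.4, 41.4 and 35.9 with K+ ICN. All treated libraries were above PA. It rose with Na+ ICN (log2 fold change 0.54, SE 0.086, edgeR adjusted p = 1.29e-05) and with K+ ICN (log2 fold change 0.82, SE 0.084, edgeR adjusted p = 2.61e-10). Eif4ebp1, an inhibitor of cap-dependent translation, rose from 11.7 ± 1.53 to 18.8 ± 1.15 CPM with K+ ICN (SD, n = 3; log2 fold change 0.69, SE 0.11, edgeR adjusted p = 3.69e-06). The secreted hormones Fgf21 and Gdf15, which report a strong response in other tissues, were under 1 CPM. Of 13 genes of the eIF2 machinery, 1 was called higher with each material and none was lower. The shares called higher over all genes tested, given above, were 5.63% (Na+ ICN) and 8.15% (K+ ICN). Across the 13 genes the median log2 fold change was 0.022 (Na+ ICN) and 0.045 (K+ ICN). The gene called with Na+ ICN was the antiviral kinase Eif2ak2 (log2 fold change 0.61, SE 0.17, edgeR adjusted p = 0.0170). Its call was lost without Na+ ICN replicate 2 (edgeR adjusted p = 0.0562) or PA replicate 1 (0.0708) or 3 (0.113). The gene called with K+ ICN was the eIF2 subunit Eif2s2 (log2 fold change 0.12, SE 0.035, edgeR adjusted p = 0.0182). Its call was lost without K+ ICN replicate 2 (edgeR adjusted p = 0.116) or PA replicate 1 (0.121).

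Beyond the 15 chaperone genes, 29 tested genes of ER folding and degradation gave 0 calls with Na+ ICN by edgeR and 4 lower with K+ ICN. Over all genes tested, 5.22% were lower with Na+ ICN and 7.68% with K+ ICN. With Na+ ICN 0 of the 29 were higher and 5 lower at an unadjusted p under 0.05, and DESeq2 and limma voom each called 0. The summed level of the list was 1912 to 1937 CPM in PA, 1839 to 1875 with Na+ ICN and 1842 to 1875 with K+ ICN. Sel1l, a subunit of the main degradation ligase of the ER, measured 231, 233 and 235 CPM in PA, 216, 227 and 227 with Na+ ICN, and 207, 221 and 203 with K+ ICN. All 3 K+ ICN libraries were below PA, and they overlapped with Na+ ICN. It fell with K+ ICN (log2 fold change -0.15, SE 0.035, edgeR adjusted p = 0.00196). Over the alternative settings the number lower with K+ ICN was 1 to 4, and Edem2, Dnajc10 and Mbtps1 each lost their call when single libraries were left out.

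Markers of other cells moved with the treatments beside these genes. Of 19 tested astrocyte and radial glia markers, 14 were higher with Na+ ICN and 12 with K+ ICN, and none was lower. Over all genes tested, 5.63% were higher with Na+ ICN and 8.15% with K+ ICN. Summed fibroblast and mural markers were 219 to 242 CPM in PA, 291 to 295 with Na+ ICN and 320 to 354 with K+ ICN. Of the 9 tested genes of this list, 6 were higher in each comparison with PA. Summed markers of dividing cells were 199 to 214, 218 to 249 and 241 to 252 CPM. Microglia markers summed to 13.2 to 18.5 CPM over all libraries, with P2ry12, Tmem119, Trem2 and Ptprc under 1 CPM, and 6 of 7 endothelial markers were under 1 CPM. The part of these cells in the changes of the stress response genes was not tested.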

How the data were processed

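Polyadenylated RNA of 9 cultures was read from a stranded, single-end library. The authors deposited raw counts, whole numbers per gene symbol. The submitters' processing notes name Trim Galore, STAR, RSEM and the build GRCm38 (mm10) without versions. The counting tool and its strand setting were not given in the sources used here. Those genes whose exons overlap another tested gene (1 of the 44 on the same strand, 8 on the other) are therefore uncertain.

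Groups were taken from the labels, 3 biological replicates each. Separate dissections or animals are not stated, and p-values then measure only how far these cultures differ, which may be technical. Replicates of a group differed by more than counting noise (chi-square per degree of freedom 3.23 to 4.18 over 9 pairs) and were kept apart. Cultures with the same replicate number did not deviate together, with correlations of -0.016 to 0.048 over 9 pairs, so no pairing was used.

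The count test was edgeR 4.0.16 under R 4.3.3 (filterByExpr with a count minimum of 10, TMM, a robust quasi-likelihood fit to all 9 libraries, 6 residual degrees of freedom), and p-values were adjusted by Benjamini-Hochberg over 15183 tested genes and called under 0.05. These genes held 99.9% of all counts, and the coefficient of variation between replicates was 5.67%. Fold changes carry a standard error and, where given, a 95% interval that is not adjusted for the number of genes. The method was also run on simulated counts. They were drawn from the means and spreads fitted to these data, so they cannot show an effect of preparation or batch. Alternatives were DESeq2 1.42.0, limma 3.58.1 (voom), other scalings and filters, fits restricted to 6 libraries, a model with replicate number as block, and leaving out each library. Per-length levels used the longest transcript of each symbol in GENCODE vM21.

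The 44 genes and 14 further lists with 193 entries were chosen with earlier results of these data known. Genes of the 44 were named with every library where they passed a test and had a mean of at least 5 CPM. Of each further list, up to 4 genes with the smallest p against PA were named, and markers of other cell types could be named by level. Mars1, Fgf21 and Gdf15 were named in addition, after their values were seen.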

Additional observations from a re-analysis of the deposited data

How the results depend on the processing

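Over 17 alternative settings the 44 genes gave 2244 values, of which 2145 kept their direction and their side of the threshold, 83 lost a call, 16 gained one and 0 changed direction while called. In all 17 settings, 8 of 18 calls held with Na+ ICN against PA, 13 of 19 with K+ ICN against PA and 3 of 8 between the materials. Counts of called genes moved by over 1.5 times in these cases. With Na+ ICN against PA, 1648 genes were called, and 1079 to 1611 when a library was left out. The ER chaperone arm had 7 genes lower, 4 with upper-quartile scaling and 3 to 8 with a library left out, and 1 higher, 0 to 1 with a library left out. With K+ ICN against PA it had 3 lower, 1 with limma voom, with no low-count filter or with upper-quartile scaling, and 1 to 3 with a library left out, and 1 higher, 0 to 1 with a library left out. Between the materials the ATF4 arm had 5 higher, 1 to 5 with a library left out. The ER arm had 1 higher, 2 with DESeq2 or with a filter of 1 CPM in 3 libraries, 3 with the replicate number as a block, and 1 to 4 with a library left out. The replicate numbers did not pair the cultures, and the block lost 0 calls of the 44 genes and added 3, Slc7a1 with Na+ ICN (adjusted p = 0.0472), and Xbp1 (0.0472) and Hsp90b1 (0.0327) between the materials, all from edgeR. The 4 genes under 5 CPM in PA (Atf3, Cebpb, Nupr1 and Trib3) carried the fewest counts and the widest intervals, which limits what can be said of them at this depth.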

Other observations

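Stress programmes outside the ER and ATF4 pathways were measured in the same libraries. Of 14 tested cytosolic heat shock genes, 1 was higher and 1 lower with Na+ ICN, and 3 were higher and 2 lower with K+ ICN. Over all genes tested, 5.63% were higher and 5.22% lower with Na+ ICN, and 8.15% higher and 7.68% lower with K+ ICN. The median log2 fold change of the 14 genes was 0.05 with either material. Hspa4, an exchange factor of the HSP70 chaperones, measured 368, 369.6 and 368 CPM in PA, 342, 333 and 327 with Na+ ICN, and 328, 338 and 326 with K+ ICN. All treated libraries were below PA, and it fell with Na+ ICN (log2 fold change -0.14, SE 0.03, edgeR adjusted p = 0.000864) and with K+ ICN (log2 fold change -0.16, SE 0.03, edgeR adjusted p = 0.000122). Cryab, the small heat shock protein alpha B-crystallin, which astrocytes and other glia also express, was 3.09 ± 0.553 CPM in PA and 5.71 ± 0.706 CPM with K+ ICN (SD, n = 3; log2 fold change 0.88, SE 0.2, edgeR adjusted p = 0.00109).

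Of 9 mitochondrial stress genes, 1 was higher with Na+ ICN and 2 with K+ ICN, and 0 were called lower. In each comparison with PA, 1 was lower at an unadjusted edgeR p under 0.05. Of all genes tested, 5.63% were higher and 5.22% lower with Na+ ICN, and 8.15% higher and 7.68% lower with K+ ICN. The median log2 fold change of the 9 genes was 0.043 with Na+ ICN and -0.0064 with K+ ICN. Hspa9, the HSP70 chaperone of mitochondria, measured 261, 268 and 271 CPM in PA, 299, 285 and 289.9 with Na+ ICN, and 310.2, 304 and 306 with K+ ICN. All treated libraries were above PA, the opposite of its ER counterpart Hspa5. It rose with Na+ ICN (log2 fold change 0.13, SE 0.032, edgeR adjusted p = 0.00486) and with K+ ICN (log2 fold change 0.20, SE 0.032, edgeR adjusted p = 3.61e-06). Dnaja3, its J protein partner, was close to the threshold with K+ ICN (log2 fold change 0.19, SE 0.069, edgeR adjusted p = 0.0490), and the call was lost with DESeq2 (adjusted p = 0.0659) and limma voom (adjusted p = 0.0558) and when single libraries were left out, with an edgeR adjusted p of up to 0.270 without PA replicate 1.

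Of 13 tested genes of the NRF2 antioxidant response, 2 were higher with each material and none was called lower. The shares called higher over all genes tested were 5.63% (Na+ ICN) and 8.15% (K+ ICN). Across the 13 genes the median log2 fold change was 0.039 (Na+ ICN) and 0.055 (K+ ICN). Nfe2l2, which encodes NRF2, measured 10.6, 8.18 and 7.302 CPM in PA, 11.1, 13.6 and 10.8 with Na+ ICN, and 12.3, 13.3 and 12.9 with K+ ICN. It rose with K+ ICN (log2 fold change 0.56, SE 0.13, edgeR adjusted p = 0.00184) and with Na+ ICN (log2 fold change 0.44, SE 0.14, edgeR adjusted p = 0.0264), the latter lost without Na+ ICN replicate 2 (edgeR adjusted p = 0.197), PA replicate 2 (0.0991) or PA replicate 3 (0.206). Hmox1, the haem-degrading enzyme that NRF2 induces and that glia and macrophages express, was 10.8 ± 1.67 CPM in PA, 14.8 ± 1.29 with Na+ ICN and 14.3 ± 2.16 with K+ ICN (SD, n = 3). Its calls (log2 fold change 0.46, edgeR adjusted p = 0.0111 with Na+ ICN and log2 fold change 0.41, edgeR adjusted p = 0.0161 with K+ ICN) were lost when single libraries were left out. The edgeR adjusted p rose to as much as 0.0887 with Na+ ICN, without Na+ ICN replicate 2, and 0.188 with K+ ICN, without K+ ICN replicate 3.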
